A study of Mus musculus with 6 samples.

Results

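Genes placed around the serum- and glucocorticoid-regulated kinases (SGK) were followed in differentiated mouse osteoblasts given vehicle or corticosterone. They are 9 of the 24016 genes with a deposited value, taken by gene symbol: the kinases *Sgk1* and *Sgk3*, the SGK targets *Nedd4l*, *Ndrg1* and *Ndrg2*, the kinase *Wnk1*, and the sodium transport genes *Atp1b1*, *Atp1b3* and *Slc12a2*. All 9 had a row in the table. *Sgk1* rose 6.71-fold and *Slc12a2* rose 1.32-fold, *Atp1b1* and *Ndrg1* were lower, *Nedd4l*, *Wnk1* and *Atp1b3* did not pass the test, and *Sgk3* and *Ndrg2* had hardly any reads.

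SGK kinases are activated through the phosphoinositide 3-kinase pathway by PDK1 and mTOR complex 2, and SGK1 is also controlled by how much of its messenger RNA is made, which glucocorticoids and mineralocorticoids raise. In sodium-transporting epithelia SGK1 phosphorylates the ubiquitin ligase NEDD4-2, the product of *Nedd4l*, which then removes less epithelial sodium channel from the membrane. WNK kinases act through SPAK and OSR1 on cation-chloride cotransporters, and the Na,K-ATPase, built of an alpha and a beta subunit, keeps the sodium gradient that these transporters use.

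The cells were MC3T3-E1 subclone 4, a clonal wild-type preosteoblast line from mouse calvaria, kept for 6 days in differentiation medium that held 10 mM β-glycerophosphate together with 50 μg/ml of ascorbic acid. Of 6 cultures, 3 received vehicle and 3 received corticosterone (100 nM), the chief glucocorticoid hormone in mice, over 24 h, and the treatment text, worded the same for all 6 libraries, names that corticosterone dose together with 10 nM calcitriol. The groups come from the treatment label of each library, and whether the vehicle cultures received calcitriol is not stated per sample. RNA was sequenced in bulk, so fewer cells expressing a gene and less RNA per cell cannot be told apart. Genes received between 16020401 and 25638645 reads per library, with fewer reads in each corticosterone library than in any vehicle library.

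Values are normalized counts, which are read counts divided by 1 size factor per library, and 3 reads, taken as the floor, correspond to 2.32 to 3.84 normalized counts. A gene is called at the floor where both group means were at most 3.84, so a single library can lie above it. Groups were compared with limma on log2(normalized count + 0.1), p-values were adjusted by the Benjamini-Hochberg method across the 24016 genes, and a gene was called at an adjusted p under 0.05. The exact permutation test of 3 libraries against 3 cannot give a p under 0.1, the value it gave for every gene described here whose groups did not overlap.

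The glucocorticoid-induced genes *Tsc22d3*, *Fkbp5* and *Per1* were all called higher with a log2 fold change over 1. All 9 osteoblast markers examined were present, with summed normalized counts of 1485480.4 to 1536592 with vehicle and 1286792 to 1345572 with corticosterone. After corticosterone 8 of them were called lower, against 8.2% of all genes, and *Spp1* was higher (log2 fold change 0.23, limma adjusted p = 0.00061). The median log2 fold change of the 9 was -0.41, with larger falls of *Runx2* (-1.16) and *Bglap* (-1.87). All 9 had a mean of at least 100, a range in which 32.6% of genes were called in either direction. The 4 epithelial markers with a row, *Cdh1*, *Krt8*, *Krt19* and *Cldn4*, were at the floor and summed to at most 8.27 in any library, and the endothelial markers *Pecam1* and *Tie1*, also at the floor by their group means, summed to at most 9.73, with up to 9 reads of *Pecam1* in a library. Of the epithelial and endothelial lists *Epcam*, *Krt18*, *Cdh5* and *Kdr* had no row. The adipocyte gene *Fabp4* went from 14.8 ± 6.71 to 121 ± 11.5 (SD, n = 3), while *Plin1* stayed at the floor and *Adipoq* and *Cidec* had no row. The chondrocyte markers *Col2a1* and *Sox9* were present and lower after corticosterone, while *Matn1* was at the floor and *Acan* had no row. The neuronal and glial list, in which *Rbfox3* had no row, summed to at most 64.1. The macrophage and leukocyte list, in which *Ptprc* and *Adgre1* had no row, summed to 262 to 300.03 with vehicle and 214 to 239 with corticosterone. The part of these shifts in the results below was not tested.

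*Sgk1* (ENSMUSG00000019970, chromosome 10, 21882184 to 21999903 of GRCm38, plus strand) encodes the SGK kinase whose transcription glucocorticoids induce. Its normalized count was 1369.6, 1371 and 1167 with vehicle and 8587, 8328 and 9293 with corticosterone. The lowest corticosterone library was far above the highest vehicle library, and the spread within a group was small, with a coefficient of variation of 9.02% with vehicle and 5.72% with corticosterone. The log2 fold change was 2.75 (standard error 0.06, 95% confidence interval 2.62 to 2.88, limma adjusted p = 2.2e-14). The call was kept under all 20 alternative settings, with log2 fold changes between 2.67 and 2.79.

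By log2 fold change *Sgk1* ranked 96 among the 331 genes called higher with a log2 fold change over 1. Among the 261 of them with a mean of at least 10 it ranked 37. Only 11 of these genes, *Sgk1* included, had a mean as high as that of *Sgk1*, and 0 of those had a larger log2 fold change. That mean, 5019 over all 6 libraries, combines 1302 with vehicle and 8736 with corticosterone. The cut thus contains the rise that is ranked. Its mean rose by 7433 normalized counts, the 26th largest gain of all 24016 genes.

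The annotation of RefSeq lists 6 starts for *Sgk1*, and the 250 bases before each were searched on both strands for the palindromic glucocorticoid response element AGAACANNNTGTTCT and for its arm AGAACA, which the palindrome contains. The palindrome occurred in 3 of 32851 such windows of the mouse genome (0.00913%), and 1 of the 3 was a window of *Sgk1*. It lay at chr10:21993701-21993715, from 189 to 175 bases before the start at position 21993890, an internal start within the annotated gene. The windows that follow are given in GRCm38.p6 and 5′ to 3′ on the strand of the gene, with the palindrome in capitals: the window that holds it, chr10:21993640-21993889 (plus strand), that of the last *Sgk1* start, chr10:21994416-21994665 (plus strand), and, as a member that was lower, that of *Atp1b1*, chr1:164458356-164458605 (minus strand).
Sgk1, start at 21993890: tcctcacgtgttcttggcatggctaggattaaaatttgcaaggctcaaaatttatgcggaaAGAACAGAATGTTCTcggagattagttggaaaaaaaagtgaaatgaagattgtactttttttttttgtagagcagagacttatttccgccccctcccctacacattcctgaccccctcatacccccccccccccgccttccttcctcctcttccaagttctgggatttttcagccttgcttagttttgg
Sgk1, start at 21994666: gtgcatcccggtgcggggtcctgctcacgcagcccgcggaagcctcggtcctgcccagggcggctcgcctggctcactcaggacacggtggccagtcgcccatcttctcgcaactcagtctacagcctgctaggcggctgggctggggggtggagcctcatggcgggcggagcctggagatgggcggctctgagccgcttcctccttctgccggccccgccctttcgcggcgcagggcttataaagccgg
Atp1b1, start at 164458355: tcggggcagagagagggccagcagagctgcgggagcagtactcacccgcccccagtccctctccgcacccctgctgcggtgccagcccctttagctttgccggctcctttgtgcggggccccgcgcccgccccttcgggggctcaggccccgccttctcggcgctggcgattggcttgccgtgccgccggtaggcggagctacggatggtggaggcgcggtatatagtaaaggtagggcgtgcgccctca
The last 2 sequences hold neither the palindrome nor the arm. The arm was found in 16.1% of all windows, in 3 of the 6 windows of *Sgk1* and in 0 of the 7 windows of *Atp1b1*, *Wnk1*, *Atp1b3* and *Ndrg2*. Gene counts do not tell the starts apart, so a match describes only the letters of a window.

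*Sgk3* (chromosome 1, 9798107 to 9900845), which encodes an SGK with an endosome-binding domain, had 5, 4 and 1 reads with vehicle and 1, 2 and 2 with corticosterone. With so few reads, no fold change could be given. *Sgk2*, the remaining paralog, had reads in 1 library only, 2 reads in a corticosterone library. Of the upstream activators, *Pdpk1*, which encodes PDK1, was slightly lower, with 1621, 1597 and 1585 against 1457, 1455 and 1420.0 (log2 fold change -0.15, limma adjusted p = 0.037). That call was lost when any 1 of the 6 libraries was left out (adjusted p 0.051 to 0.096) and with DESeq2 with the replicate block. *Mtor*, *Rictor*, *Mapkap1*, *Mlst8* and *Prr5*, which encode mTOR complex 2 and its partners, did not pass the test.

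*Nedd4l* (chromosome 18, 64887705 to 65217828, plus strand) had 533, 569.6 and 592 with vehicle and 550.3, 596 and 591 with corticosterone. The groups overlapped, and the log2 fold change was 0.037 (95% confidence interval -0.11 to 0.18, limma adjusted p = 0.79), with a sign that turned under other scalings (down to -0.031). Its paralog *Nedd4* encodes a related ligase and had the higher level, 2073 ± 31.6 against 32.0 ± 1.69 normalized counts per kb of merged exons with vehicle (SD, n = 3). The *Nedd4* normalized count was 22962, 22351 and 22943 with vehicle and 22129, 21803 and 21549.7 with corticosterone, without overlap, but it did not pass the test (log2 fold change -0.060, limma adjusted p = 0.33), and it was past the threshold with quantile normalization, at -0.18. The share of *Nedd4l* in the level of the 2 ligases was 1.52% ± 0.0852 with vehicle and 1.62% ± 0.0876 with corticosterone (SD, n = 3, two-sided exact permutation p = 0.3).

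*Ndrg1* (chromosome 15, 66929318 to 66969640, minus strand) encodes a protein whose phosphorylation is commonly used to read SGK1 activity. It had 765, 587 and 665 with vehicle and 445, 563 and 581 with corticosterone. The groups did not overlap, yet the highest corticosterone library and the lowest vehicle library were close together. The log2 fold change was -0.34 (standard error 0.10, 95% confidence interval -0.56 to -0.13, limma adjusted p = 0.028). This call was weak: it was lost under 9 of 20 alternatives, among them the replicate block (adjusted p = 0.056), a fit without a variance trend (adjusted p = 0.31), and the omission of any library other than vehicle replicate 2 (adjusted p up to 0.22). Of the 31-base stretches of its transcripts 5.32% also occur in the antisense gene *Gm17035*, which had no row.

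*Ndrg3*, its paralog, differed from *Ndrg1* in direction. It had 1877, 1806 and 1743 with vehicle and 2086, 1975 and 2112 with corticosterone, and rose by a log2 fold change of 0.19 (limma adjusted p = 0.013), a call that was lost without vehicle replicate 3, corticosterone replicate 1 or corticosterone replicate 3 (adjusted p up to 0.096), and with upper-quartile scaling, which brought the log2 fold change to 0.12. *Ndrg4* had overlapping groups (log2 fold change 0.061, limma adjusted p = 0.64). *Ndrg2* had 3, 0 and 1 reads with vehicle and 1, 2 and 0 with corticosterone, at or under the floor. Per kb of merged exons, the share of *Ndrg1* in the level of the 4 NDRG genes was 22.2% ± 1.89 with vehicle and 16.99% ± 2.27 with corticosterone, and that of *Ndrg3* was 47.1% ± 1.87 and 51.9% ± 1.56 (SD, n = 3). Neither share overlapped between groups (two-sided exact permutation p = 0.1, the smallest that 3 against 3 allows).

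*Wnk1* (chromosome 6, 119923969 to 120038672, minus strand) encodes the WNK kinase with the broadest expression. Its normalized count was 8625, 8508 and 8909 with vehicle and 8743, 8622 and 8787 with corticosterone. The groups overlapped, and the log2 fold change was 0.0063, with a 95% confidence interval of only -0.073 to 0.085 (limma adjusted p = 0.96). Its sign turned under 4 of 20 alternatives, and quantile normalization put it past the threshold at -0.13 (limma adjusted p = 0.018).

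*Wnk2*, which encodes a related kinase that is less widely expressed, fell. It had 158, 162 and 184 with vehicle and 38.5, 42.0 and 38.4 with corticosterone. Every corticosterone library lay under every vehicle library, and the group means differed 4.24-fold (log2 fold change -2.08, standard error 0.15, limma adjusted p = 4.3e-08, kept under all 20 alternatives). Per kb of merged exons the share of *Wnk2* in the level of the 4 WNK genes was 4.81% ± 0.326 with vehicle and 1.18% ± 0.0679 with corticosterone, while *Wnk1* made up 92.3% ± 0.588 and 96.4% ± 0.808 (SD, n = 3, two-sided exact permutation p = 0.1 for each). *Wnk4* had few reads and overlapping groups, 32.1 to 56.8 against 24.6 to 45.3. Downstream of the WNK kinases, *Stk39* and *Oxsr1*, which encode SPAK and OSR1, did not pass the test (log2 fold changes 0.12 and 0.14, limma adjusted p = 0.43 and 0.14). *Cab39l*, which encodes an MO25 scaffold that activates those kinases, rose from 461 ± 31.6 to 736 ± 61.6 (SD, n = 3, log2 fold change 0.67, limma adjusted p = 6.3e-06), whereas its paralog *Cab39* was 1406 ± 48.5 and 1428 ± 10.7. The complex that degrades WNK kinases did not pass the test either: *Klhl2*, *Klhl3* and *Cul3* had adjusted p of 0.63, 0.40 and 0.27 with limma.

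*Atp1b1* (chromosome 1, 164437109 to 164458355, minus strand) encodes the beta-1 subunit of the Na,K-ATPase. It had 349, 402 and 291 with vehicle and 254, 262 and 234 with corticosterone. All corticosterone libraries were under all vehicle libraries, and the vehicle libraries were spread more widely, with a coefficient of variation of 16.1% against 5.69%. The log2 fold change was -0.46 (standard error 0.11, 95% confidence interval -0.69 to -0.24, limma adjusted p = 0.0056). The call was lost in a fit without a variance trend (adjusted p = 0.16) and without corticosterone replicate 3 (adjusted p = 0.085). *Atp1b1* overlaps *Nme7* on the opposite strand over 617 bases, and 16.9% of the 31-base stretches of its transcripts also occur in those of *Nme7*. The strand setting of the counting is not given in the sources used here, so reads of the shared stretch cannot be assigned, and *Nme7* itself did not pass the test (log2 fold change -0.17, limma adjusted p = 0.31).

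*Atp1b3* (chromosome 9, 96332655 to 96364442, minus strand) encodes the beta-3 subunit. It had 1149.8, 1089.8 and 1111 with vehicle and 1169, 1174 and 1173 with corticosterone. The groups did not overlap, but the difference was small and not past the threshold (log2 fold change 0.070, 95% confidence interval -0.037 to 0.18, limma adjusted p = 0.43). Of its 31-base stretches 16.2% also occur in *Gm1848*, which was itself counted at no more than 1.28 in any library. *Fxyd1*, which encodes the pump regulator phospholemman, fell from 439 ± 32.1 to 299.9 ± 24.8 (SD, n = 3, log2 fold change -0.55, limma adjusted p = 0.00019).

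Per kb of merged exons, *Atp1b1* made up 19.4% ± 2.71 of the beta subunit level with vehicle and 14.2% ± 0.681 with corticosterone (SD, n = 3). This share did not overlap between groups (two-sided exact permutation p = 0.1).

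*Slc12a2* (chromosome 18, 57878678 to 57946821, plus strand) encodes NKCC1, the cotransporter that brings sodium, potassium and chloride into cells. Its normalized count was 1392, 1186 and 1359 with vehicle and 1814, 1703 and 1698 with corticosterone. Each corticosterone value was above each vehicle value. The log2 fold change was 0.41 (standard error 0.06, 95% confidence interval 0.28 to 0.54, limma adjusted p = 0.00012), and the call was kept under 19 of 20 alternatives. It was lost in a fit without a variance trend (adjusted p = 0.073).

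Among the chloride-extruding relatives, the potassium-chloride cotransporter gene *Slc12a7* fell, with 2913, 2859.6 and 2892 against 2338, 2285 and 2470.3 (log2 fold change -0.29, limma adjusted p = 0.00017). *Slc12a4*, which encodes another cotransporter of this kind, did not pass the test (log2 fold change -0.067, limma adjusted p = 0.40). The kidney cotransporter gene *Slc12a3* was at the floor.

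**Figure D1:**
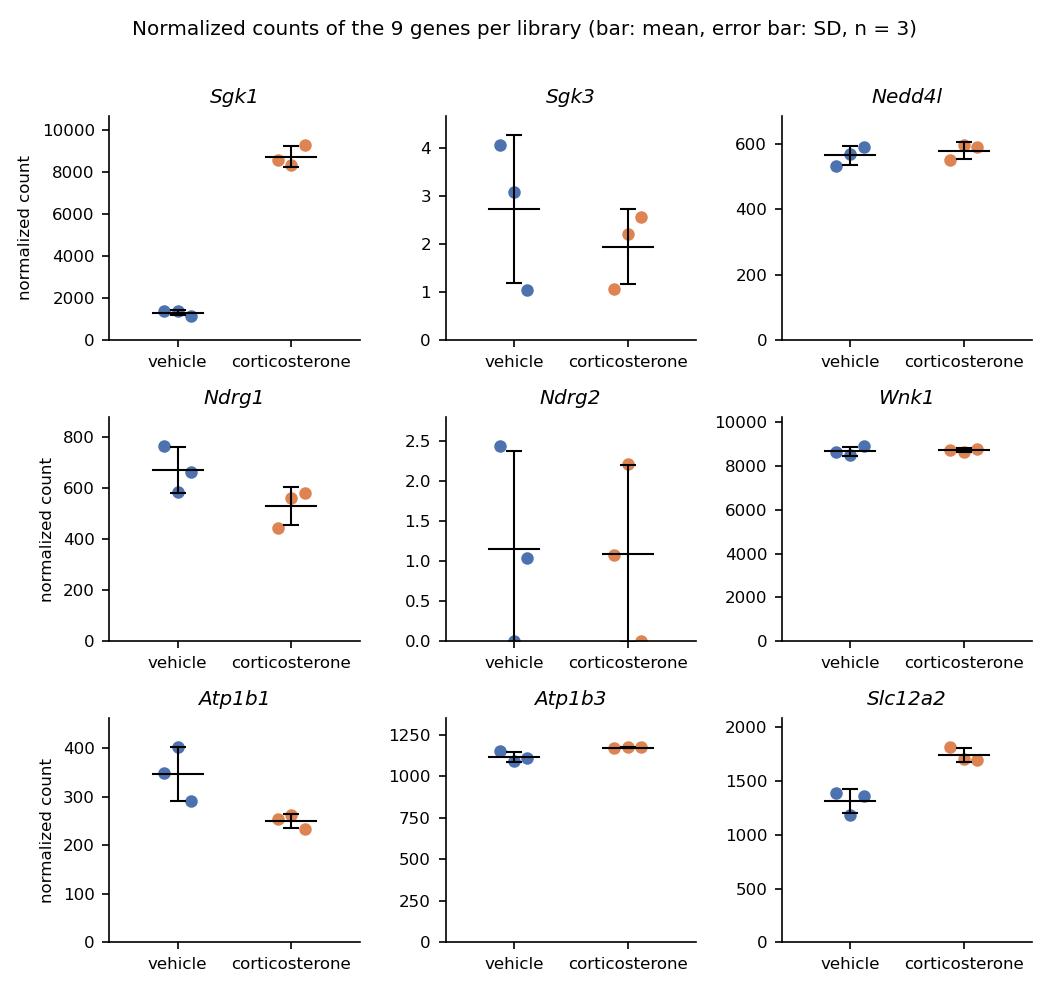
Normalized counts of the 9 genes in each library (points), with the group mean (bar) and SD (error bar, n = 3), on axes that start at 0, where the lower SD bars of *Ndrg2* end. *Sgk1* shows the widest gap, *Slc12a2* is higher and *Ndrg1* and *Atp1b1* are lower after corticosterone, and *Sgk3* and *Ndrg2* stay under 5 normalized counts.

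Of the 9 genes, 2 were called higher and 2 lower, while 16.7% of all 24016 genes were called in either direction, 8.49% higher and 8.2% lower. Under the stricter rule that also asks for an absolute log2 fold change over 1, *Sgk1* alone was called, against 2.78% of all genes, 1.38% higher and 1.4% lower. Calls depend on how many reads a gene has, and among genes with a mean of at least 100 the share called was 32.6%, against 4 of the 7 members in that range, and 2.2% passed the stricter rule, against 1 of the 7. The groups did not overlap in 5 of the 9 genes, against 29.6% of all genes, and in 5 of 7 against 49.0% among genes with a mean of at least 100. The median log2 fold change was 0.0063 over the 9 genes, 0.037 over the 7 of them above the floor, and -0.013 over all genes. Over all genes, 50.9% of the calls were higher, a share that went to 34.2% with upper-quartile scaling and 40.3% with scaling to the same total, while the 9 genes kept 2 calls in each direction under both.

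Levels were compared between genes per kb of merged exons. With vehicle the order was *Atp1b3* (467 ± 12.7), *Wnk1* (380.3 ± 9.03), *Sgk1* (266 ± 24.0), *Slc12a2* (120.2 ± 10.2), *Atp1b1* (113 ± 18.1), *Ndrg1* (102 ± 13.5) and *Nedd4l* (32.0 ± 1.69), in normalized counts per kb (SD, n = 3). The ranges of *Slc12a2* and *Atp1b1*, and of *Atp1b1* and *Ndrg1*, overlapped, and the other neighbours were apart. With corticosterone *Sgk1* moved to the top at 1782 ± 102, above *Atp1b3* (491 ± 1.09) and *Wnk1* (382 ± 3.76), followed by *Slc12a2* (159 ± 6.00), *Atp1b1* (81.1 ± 4.62), *Ndrg1* (80.3 ± 11.2) and *Nedd4l* (32.8 ± 1.43). There only *Atp1b1* and *Ndrg1* overlapped. *Sgk3* and *Ndrg2* were under 1 in both groups. With the length of the longest transcript in place of the merged exons, *Wnk1* came before *Atp1b3* and *Ndrg1* before *Atp1b1* in both groups.

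**Figure D2:**
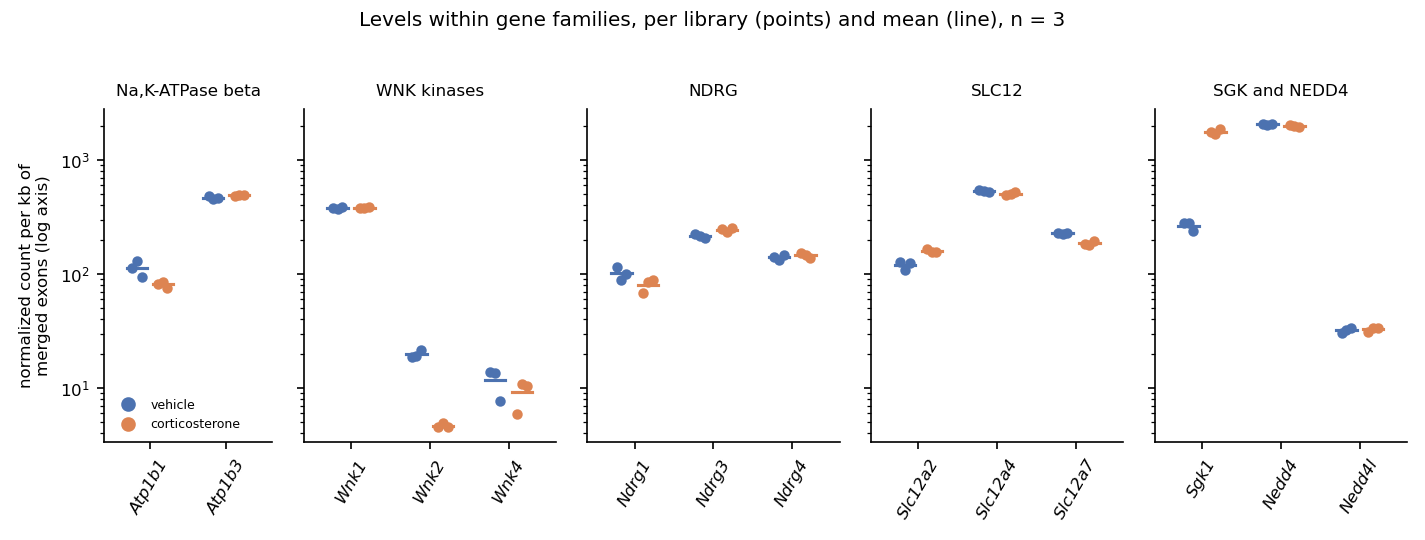
Levels of family members per library (points) and their mean (line), in normalized counts per kb of merged exons on a log axis, n = 3 per group. *Sgk1* goes from 266 to 1782 and *Wnk2* from 19.8 to 4.67, while *Wnk1*, *Nedd4l* and *Atp1b3* lie at nearly the same height in both groups.

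The 9 genes belong to 8 short lists covering 89 genes of SGK and WNK signalling and sodium transport, of which 75 had a row and 59 lay above the floor. In these lists 12 genes were called higher, 11 lower and 52 were not past the threshold, against 16.7% of all genes called. Among genes with a mean of at least 100, 22 of 46 were called, against 32.6% of all genes in that range. The median log2 fold change of the lists was -0.060 over the 75 genes with a row and -0.036 over the 59 above the floor. With upper-quartile scaling the calls were 8 higher and 14 lower. Past a log2 fold change of 1 were *Sgk1* upwards and 2 genes downwards, of which *Wnk2* kept its call under all 20 alternatives. With the 9 genes set aside, 10 of the remaining 66 genes with a row were higher and 9 lower.

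Of the 23 calls, all kept their direction under the alternatives that gave a value, and 9 were kept under each of the 20, among them those of *Sgk1*, *Foxo3*, *Wnk2*, *Cab39l*, *Fxyd1*, *Slc4a7* and *Slc8b1*. The other 14 were lost in the fit without a variance trend.

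Among the SGK targets, *Foxo3* encodes a transcription factor that SGK and AKT kinases hold outside the nucleus. It had 7992, 8130.4 and 8227 with vehicle and 10445, 10752 and 10732 with corticosterone, and rose by a log2 fold change of 0.39 (limma adjusted p = 7.9e-07). *Usp2*, a ubiquitin protease gene tied to sodium channel turnover, rose from 161 ± 13.8 to 229 ± 43.2 (SD, n = 3, log2 fold change 0.50, limma adjusted p = 0.014). Corticosterone replicate 2, at 180.0, was close to the vehicle libraries, and the call was lost when vehicle replicate 1 or 3 or corticosterone replicate 1 or 3 was left out (adjusted p up to 0.16), and with DESeq2 with the replicate block.

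The epithelial sodium channel itself was little represented. *Scnn1a*, which encodes its alpha subunit, had 53.5, 64.1 and 42.4 with vehicle and 63.2, 60.7 and 57.6 with corticosterone, which overlapped (log2 fold change 0.20, limma adjusted p = 0.62). *Scnn1b*, which encodes the beta subunit, was at the floor with at most 3 reads in a library, and *Scnn1g*, which encodes the gamma subunit, had no row. Of the proteases that process the channel, *Prss8* and *St14* were at the floor, while *Furin* had 2637, 2685 and 2805 with vehicle and 3194, 3007 and 3161 with corticosterone, a rise of 0.20 in log2 fold change (limma adjusted p = 0.0037) that was lost under upper-quartile scaling.

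**Figure D3:**
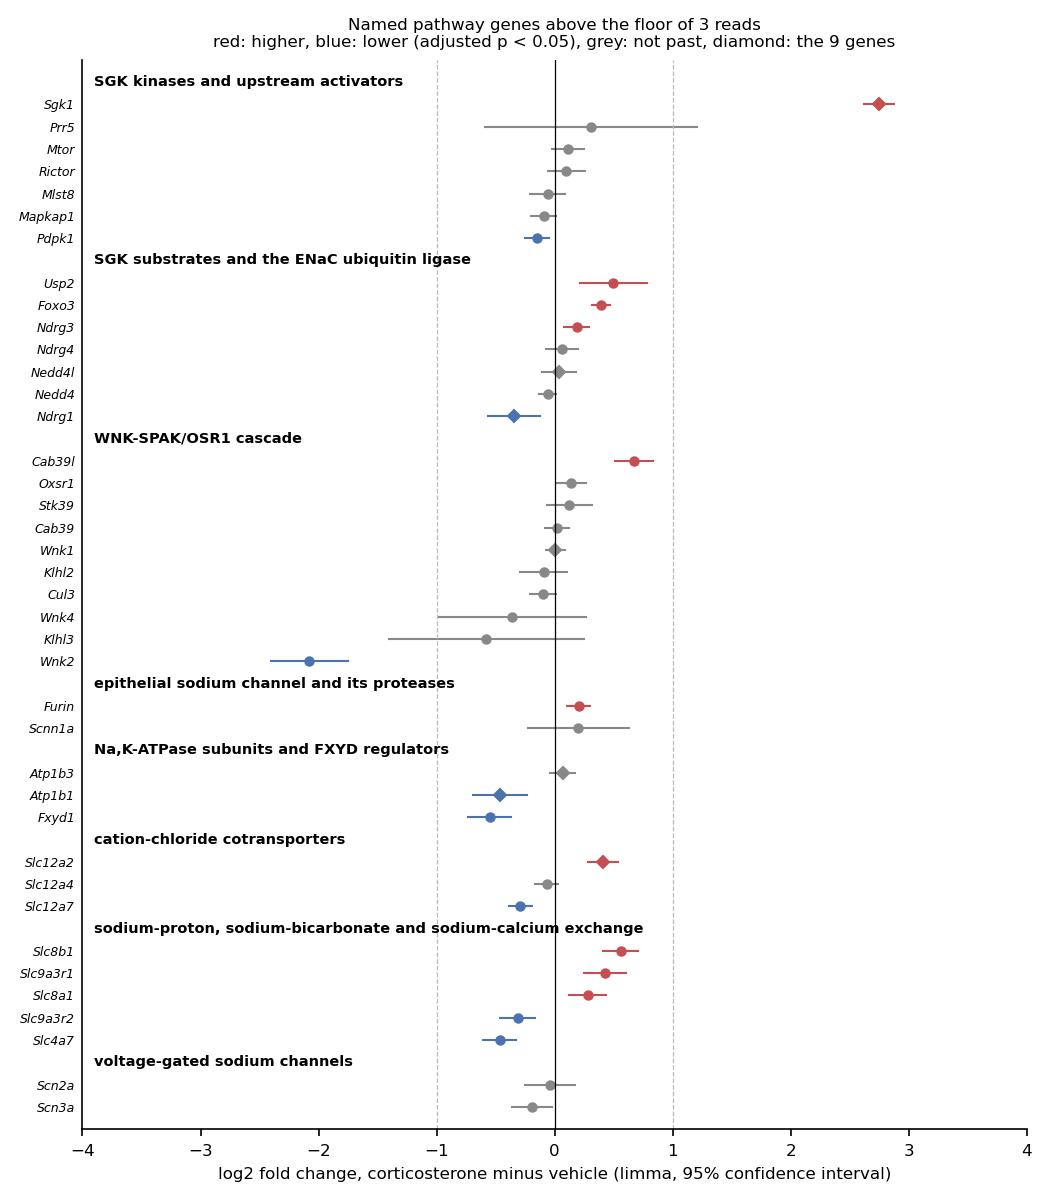
Log2 fold change of 39 pathway genes above the floor, those described by name, corticosterone minus vehicle, with 95% confidence intervals from limma, grouped by list, with calls in red (higher) or blue (lower), other genes in grey, the 9 genes as diamonds and dashed lines at -1 and 1. *Sgk1* at 2.75 and *Wnk2* at -2.08 stand apart from the other genes with narrow intervals.

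The genes whose values followed *Sgk1* most closely over the 6 libraries, among 13873 other genes with a mean of at least 10, were *Farp1*, *Psmc3*, *Tbc1d14*, *Cemip* and *Fdxr*, each with a Pearson correlation of log2 values of at least 0.999. The 6 libraries form only 2 groups, so the measure mostly reads the difference between them, and 259 genes exceeded 0.99. The changes of these genes were smaller than that of *Sgk1*. *Fdxr*, which encodes ferredoxin reductase of mitochondrial steroid synthesis, went from 823 ± 18.5 to 1956 ± 57.4 (log2 fold change 1.25), and *Cemip*, which encodes a hyaluronan-binding protein, from 10139 ± 527 to 20022 ± 420.1 (log2 fold change 0.98) (SD, n = 3).

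**Figure D4:**
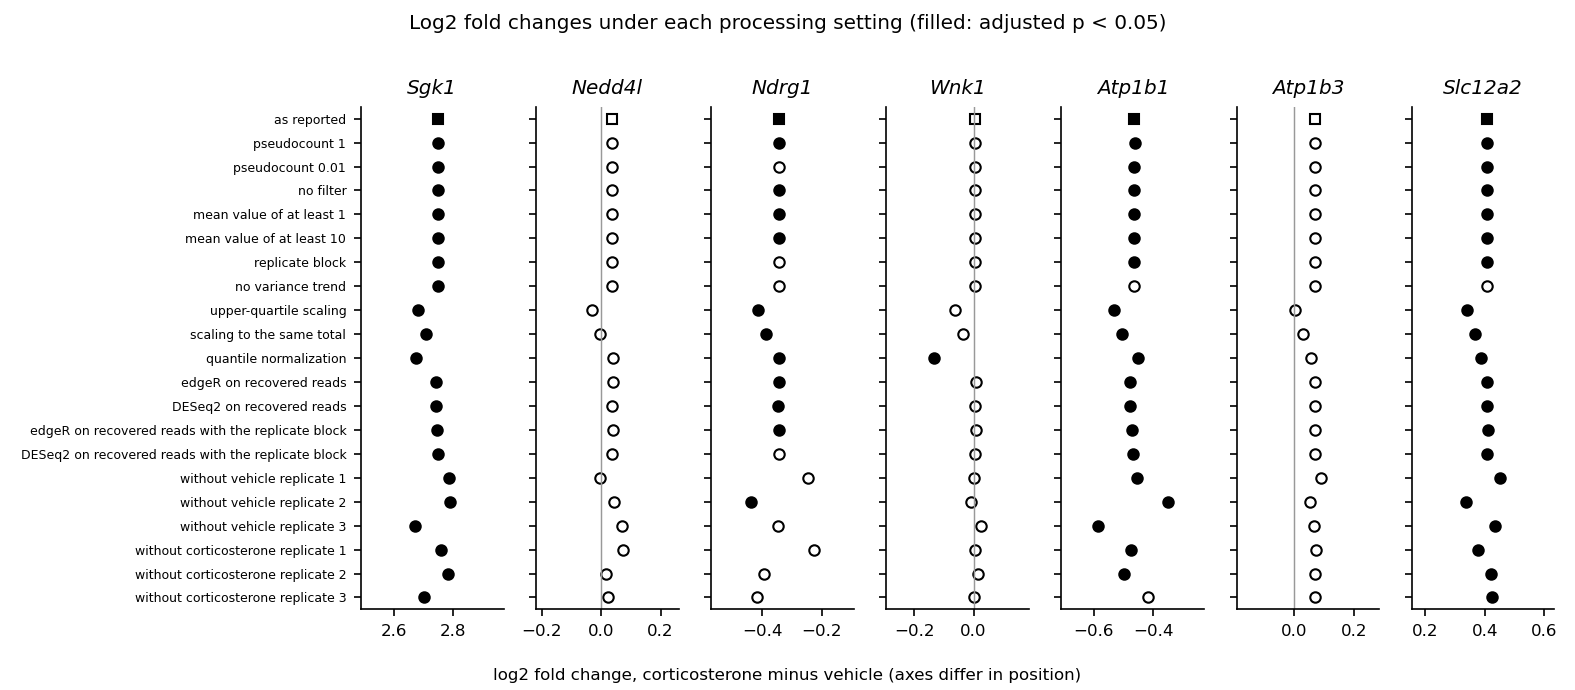
Log2 fold changes of the 7 genes above the floor under each processing setting, the reported one at the top as a square, with filled symbols where the adjusted p was under 0.05 and log2 axes that differ in position between panels. *Sgk1* stays between 2.67 and 2.79 and filled throughout, *Ndrg1* is open under 9 of 20 alternatives, and *Wnk1* and *Nedd4l* cross 0.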

How the data were processed

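RNA-seq libraries of 3 vehicle-treated and 3 corticosterone-treated MC3T3-E1 cultures were analysed. The authors deposited 1 signal value for each gene in each library, under the name FPKM. Within a library all values (100%, tolerance 0.1 reads) are whole multiples of the same step, so they are read counts that the authors divided by 1 DESeq2-type size factor per library (0.782 to 1.30), and the reads were recovered from them. The labels name build mm10. The aligner, counter, annotation and strand setting are not given in the sources used here. Sequencing was commercial, on an Illumina platform. The design planned a test of the deposited values on a log scale, with the recovered reads as alternatives, and was kept.

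The test was limma 3.58.1 in R 4.3.3 (lmFit, eBayes with a variance trend) on log2(value + 0.1), adjusted by Benjamini-Hochberg across the 24016 genes. The filter on a mean of at least 0.1 removed no gene, since the lowest mean was 0.257. The alternative with no filter is therefore the reported fit itself. It is counted among the 20 alternatives but could not differ. A fold change on this scale understates the change of genes with few reads. Calls were an adjusted p under 0.05, also with an absolute log2 fold change over 1. Alternatives were pseudocounts of 1 and 0.01, other filters (none, means of 1 and 10), other scalings, no variance trend, the replicate number as a block, leaving out each library, and edgeR 4.0.16 and DESeq2 1.42.0 on the recovered reads. The fits were tested on simulated counts. The members, gene lists and tests were chosen with earlier results of these data known.

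The genes named were the members, genes of the lists, cell type markers, the 5 genes most correlated with Sgk1 over the libraries, and genes that overlap a member or share sequence with it, and some genes of the lists are counted but not reported by name here. Symbols (23983 of 24016 identifiers matched), coordinates and merged exon lengths came from GENCODE M21 of GRCm38, and the windows before gene starts from RefSeq, where 5 of 9 members had an entry. Libraries of a group differed beyond counting noise, with a chi-square per degree of freedom of at least 3.38 for each pair. The floor of 3 reads covers counting error only. P-values measure the spread between these cultures of 1 line.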

Additional observations from a re-analysis of the deposited data

How the results depend on the processing

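The 9 genes gave 2 higher and 2 lower calls under 10 of 20 alternatives. The higher count was 1 with no variance trend. The lower count was 1 with a pseudocount of 0.01, with the replicate block and with DESeq2 with the replicate block, 0 with no variance trend, and 0 to 2 when 1 library was left out, with 0 without corticosterone replicate 3 and 2 only without vehicle replicate 2. Quantile normalization added *Wnk1* to the lower calls.

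*Wnk1* turned sign with upper-quartile scaling (-0.062), scaling to the same total (-0.035), quantile normalization (-0.13) and without vehicle replicate 2 (-0.0081), with a range of -0.0081 to 0.025 when 1 library was left out. *Nedd4l* did so with upper-quartile scaling (-0.031), scaling to the same total (-0.0045) and without vehicle replicate 1 (-0.0041), with a range of -0.0041 to 0.074 when 1 library was left out. The cause was not tested. These scalings moved the median log2 fold change of all genes from -0.013 to at most -0.080.

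In the pathway lists 5 genes were higher and 4 lower with no variance trend, and 6 were lower with DESeq2 with the replicate block. When 1 library was left out, 8 to 12 were higher, with 8 without vehicle replicate 3, and 6 to 9 lower, with 6 without corticosterone replicate 3 and 7 without vehicle replicate 3, corticosterone replicate 1 or corticosterone replicate 2. Past a log2 fold change of 1, the lower calls were 1 in place of 2 with a pseudocount of 0.01, only genes of mean 10 or more, no variance trend, the replicate block, and edgeR and DESeq2 with and without the block. They were 1 to 2 with 1 library left out, with 2 only without vehicle replicate 1, and the higher calls 1 to 2, with 2 without corticosterone replicate 2.

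Over all genes, no variance trend gave 873 higher and 760 lower, upper-quartile scaling 1349 higher, and DESeq2 with the replicate block 1254 lower, of which 198 were past a log2 fold change of -1. With 1 library left out, 1419 to 1873 were higher and 1148 to 1611 lower, the fewest lower without vehicle replicate 3, and past a log2 fold change of 1 there were 253 to 331 higher and 204 to 321 lower, with 220 without vehicle replicate 2 and 204 without vehicle replicate 3.

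The labels share replicate numbers but do not say that they pair cultures, so the replicate block was planned as an alternative only. Deviations from the group means were not shared between libraries of equal replicate number (correlations of -0.044, 0.0014 and 0.023 over 13880 genes). With the replicate block, 12 pathway genes were higher and 8 lower, and *Ndrg1* passed the threshold no more. Depth limits *Sgk3*, *Ndrg2* and the other list genes at the floor (16 in all), for which these libraries cannot show a difference. Level orders per kb rest on annotated lengths.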

Other observations

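Of the 18 genes of sodium-proton, sodium-bicarbonate and sodium-calcium exchange, 15 had a row, 4 were called higher and 3 lower, against 16.7% of all genes called in either direction. Among genes with a mean of at least 100, 7 of 10 were called, against 32.6% of all genes in that range, and 2 of these calls were of scaffold genes, *Slc9a3r1* and *Slc9a3r2*. *Slc8b1*, which encodes the mitochondrial sodium-calcium exchanger, had 396, 431 and 401 with vehicle and 616, 622 and 573 with corticosterone, a rise of 0.56 in log2 fold change (limma adjusted p = 1.7e-05). *Slc8a1*, which encodes the exchanger of the plasma membrane, rose by 0.28 (limma adjusted p = 0.013), a call that was lost when vehicle replicate 2 or 3 or corticosterone replicate 1 or 3 was left out (adjusted p up to 0.088), with upper-quartile scaling, and with DESeq2 with the replicate block. *Slc4a7*, a sodium-bicarbonate cotransporter gene, had 717, 732 and 689.9 with vehicle and 521, 545 and 485 with corticosterone, and fell by 0.47 in log2 fold change (limma adjusted p = 6.7e-05). The scaffold genes of sodium-proton exchange moved in opposite directions, with *Slc9a3r1* going from 329 ± 28.2 to 443 ± 29.4 and *Slc9a3r2* from 492 ± 11.2 to 396 ± 14.3 (SD, n = 3, limma adjusted p = 0.0015 and 0.0038), the call of the latter being lost with DESeq2 with the replicate block.

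Of the 14 genes of voltage-gated sodium channels 9 had a row, and 4 of these were at the floor. With limma 2 were called lower. *Scn2a* and *Scn3a*, which encode pore-forming subunits, did not pass the test (log2 fold changes -0.036 and -0.19, limma adjusted p = 0.88 and 0.13).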
